A study of Homo sapiens with 5 samples.

Results

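The genes of human chromosome 4 were described in 3 renal cell carcinoma lines that differ in metastatic activity to the lung. Members were all probe sets that the array's platform table assigns to exactly 1 gene, whose gene lies on chromosome 4 in the RefSeq gene table (assembly GRCh38.p14), and whose log2 signal was at least 6 in 2 or more of the 5 arrays. Symbols starting with CXCL and the genes KDR, PDGFC, VEGFC, FGF2, AREG, EREG and SPP1 were left out, which removed 26 probe sets of 16 genes, 15 of them past the signal threshold. Of 1688 chromosome 4 probe sets of 793 genes, 743 lay below the threshold, and 919 probe sets of 505 genes were the members. Another 272 genes had no member probe set. The same threshold kept 27932 probe sets of 15109 genes in the whole series, out of 54675 probe sets on the array. The threshold used measured signal, and chromosome 4 was singled out with its differences between the lines already known. All differences of LM2 and of LM1 from SN12C below are therefore descriptions without a test.

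The lines are established human cell lines, and their total RNA was measured on Affymetrix expression arrays. SN12C is the parental line, labelled non-metastatic (2 arrays, labelled biological replicates). LM1 is the lung-metastatic line of generation 1 (1 array), and LM2 that of generation 2 (2 arrays, labelled biological replicates). No treatment, time point or introduced gene is named, and the sources used here do not say how LM1 and LM2 were derived. Each line stands for itself only, and a difference between lines is not a difference between metastatic and non-metastatic tumours in general.

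Chromosome 4 is a large chromosome with comparatively few genes for its length. Its short arm carries the huntingtin gene HTT and the growth factor receptor gene FGFR3, and its long arm carries clusters of genes for liver plasma proteins, alcohol dehydrogenases and chemokines. The rest are housekeeping and signalling genes without a common function: subunits of RNA polymerase, ribosomal proteins, enzymes of purine synthesis, ubiquitin ligases, growth factors and cytoskeletal proteins. Neighbouring genes of a chromosome can share a promoter when they are transcribed away from each other from starts that lie close together, an arrangement called head-to-head. PPAT and PAICS, which encode enzymes of purine synthesis, are a classic example.

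The stretches between the starts of 4 such pairs are shown because 3 of them were the head-to-head pairs in which both genes lay lower in both LM2 arrays than in both SN12C arrays, and because PPAT and PAICS form a metabolic pair. They are RefSeq sequence of GRCh38.p14, plus strand, 5′ to 3′, from chr4:145098220-145098310 (91 bases), chr4:4290155-4290250 (96 bases), chr4:122922969-122923077 (109 bases) and chr4:56435616-56435751 (136 bases). Capitals mark matches, on either strand, to the GC box GGGCGG or the ETS core CCGGAA.
ANAPC10 and ABCE1: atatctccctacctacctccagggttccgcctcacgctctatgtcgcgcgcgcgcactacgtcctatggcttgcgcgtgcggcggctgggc
LYAR and ZBTB49: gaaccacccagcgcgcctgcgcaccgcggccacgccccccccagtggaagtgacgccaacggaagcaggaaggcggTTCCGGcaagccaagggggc
NUDT6 and AFG2A: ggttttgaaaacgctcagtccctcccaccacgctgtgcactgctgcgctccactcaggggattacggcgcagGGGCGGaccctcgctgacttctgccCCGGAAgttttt
PPAT and PAICS: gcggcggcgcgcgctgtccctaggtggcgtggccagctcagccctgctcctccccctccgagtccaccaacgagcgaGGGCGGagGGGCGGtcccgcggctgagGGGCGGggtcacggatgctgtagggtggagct

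In these 4 stretches G and C made up from 61.5% (NUDT6 and AFG2A, near the median) to 75.0% (PPAT and PAICS). The medians over equally long windows of 35116 promoters were 60.3% to 60.6%. The 4 stretches held 8 to 15 CpG dinucleotides, against medians of 4 to 6 over those windows. The PPAT and PAICS stretch held 3 GC boxes, a motif found in 35.6% of promoter windows of that length. An ETS core lay in the LYAR and ZBTB49 stretch (8.60% of windows) and, with a GC box, in the NUDT6 and AFG2A stretch (9.27% and 32.6% of windows). No match to these motifs, to TATAAA or to CCAAT lay in the ANAPC10 and ABCE1 stretch. A match is a description of the letters only.

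The arrays differed in 3 ways that touch the results below. Beta-actin probes at the 3′ end of the transcript exceeded those at the 5′ end by 3.43 (log2) in LM1, while the other arrays had 0.07 to 0.47, and GAPDH probes by 2.09 in LM1 against −0.07 to 0.14 elsewhere. SN12C replicate 1 had the narrowest values, with an SD over all probe sets of 2.11, where the others ranged from 2.22 to 2.25. The SN12C replicates lay further apart than the LM2 replicates, with a median absolute difference over the members of 0.31 against 0.09. Of 7 renal carcinoma markers measured, 7 reached 6 on every array. So did 3 of 4 endothelial, 3 of 4 fibroblast, 3 of 4 lung epithelial and 2 of 4 leukocyte markers, among them COL1A1 and SFTPC. PTPRC and LYZ of leukocytes, CDH5 of endothelium, LUM of fibroblasts and SCGB1A1 of lung airway stayed below 6 on every array. The part of other cell types in the results was not tested. In these bulk RNA samples, fewer cells of a type and less RNA per cell cannot be told apart.

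In LM2, chromosome 4 genes stood lower than in SN12C across most of the chromosome. The median member probe set was 0.13 lower (log2), with quartiles of −0.37 and 0.04, while the median over all 27932 probe sets was 0.04 higher. Of the 919 members, 624 (67.9%) were below 0, against 41.4% of all probe sets. Centring each array on its median, which lowers the LM2 difference of all probe sets, turned these shares into 80.2% and 57.1%. Against SN12C replicate 1 alone the median member stood at −0.05 and 57.1% were lower, against a median of 0.08 and 39.0% of all probe sets. Against replicate 2 alone the median was −0.17 and 74.9% were lower, against 0.00 and 44.5%. Chromosome 4 thus lay below the array-wide level against either parental array, and the distance from 0 depended on which one was used.

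Both LM2 arrays lay below both SN12C arrays for 310 members (33.7%), where 13.4% of all probe sets did. They lay above both for 68 members (7.40%), against 25.2% of all. Differences of at least 1 were found downwards for 45 members (4.90% against 1.16% of all) and upwards for 4 (0.435% against 2.15%). Nothing passed limma's test with Benjamini-Hochberg adjustment at 0.05 among the members or among all probe sets (0%), and the lowest adjusted p of a member was 0.300. With each array centred, limma called 1 member and 5 probe sets in all. At an unadjusted p under 0.05, limma had 141 members lower (15.3%, against 4.16% of all) and 11 higher (1.20%, against 6.09%). These counts come from the contrast with which the chromosome was chosen and support nothing by themselves. Without SN12C replicate 2, limma called 195 members and 6862 probe sets in all. The spread then came from the LM2 pair alone.

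Chromosome 4 had the lowest median of the 23 chromosomes measured. Chromosome 2 came next at −0.09 and chromosome 1 at −0.02, while chromosome 14 stood at 0.24 and chromosome 21 at 0.33. The order at the bottom was the same against SN12C replicate 1 (−0.05 for chromosome 4, −0.03 for chromosome 2). Against replicate 2 the gap between chromosomes 4 and 2 was small, with both at −0.17. Whether chromosomes 4 and 2 differ was not tested.

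**Figure D1:**
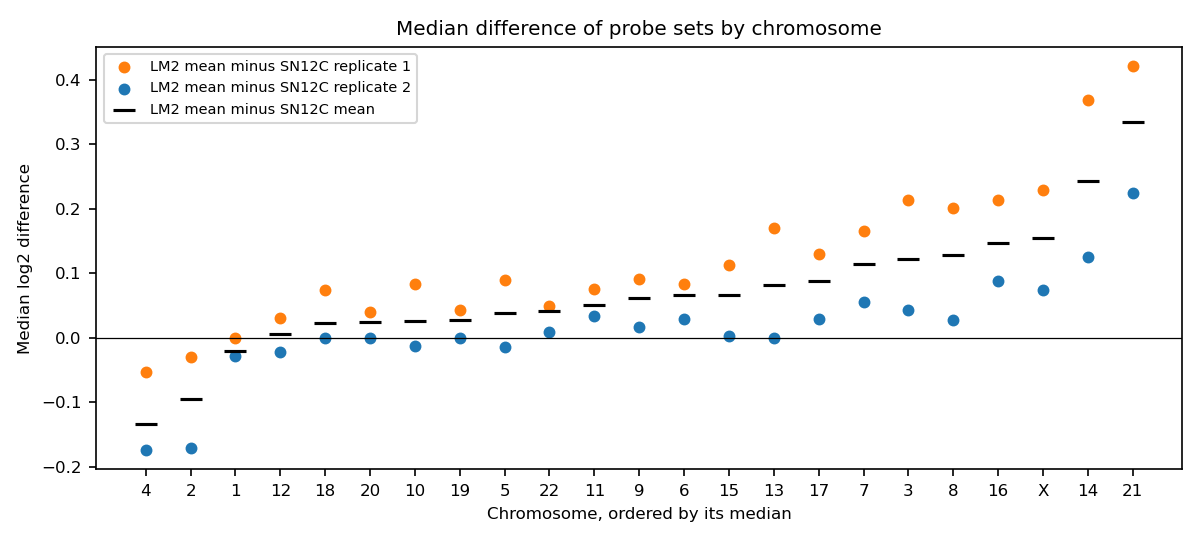
Median log2 difference of LM2 (mean of 2 arrays) from SN12C over the probe sets of each chromosome; bars give the difference from the SN12C mean and points that from each SN12C array. Chromosome 4 is leftmost at −0.13, with −0.05 and −0.17 against the single arrays, and chromosome 21 rightmost at 0.33.

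The lower values did not depend on reading several probe sets of a gene. With 1 probe set per gene, that of the highest mean, the 505 genes had a median of −0.14 against 0.03 over all 15109 genes, and 350 (69.3%, against 43.5% of all genes) were below 0. LM2 lay below both SN12C arrays for 176 genes (34.9%, against 14.1%) and above both for 38 (7.52%, against 25.2%). Of 233 genes with several member probe sets, 112 (48.1%) had every one lower and 30 (12.9%) every one higher, while over all 7248 such genes 20.0% were all lower and 39.4% all higher.

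The difference was present at every signal level but smallest among dim probe sets. With probe sets split at mean log2 signals of 7.14 and 8.81, the member medians in LM2 were −0.08 in the dim bin, −0.18 in the middle and −0.15 in the bright bin. The corresponding medians over all probe sets were −0.01, 0.05 and 0.16. In the bright bin the choice of parental array mattered most, with member medians of 0.00 against replicate 1 and −0.33 against replicate 2. The same bin stood at 0.32 and 0.01 over all probe sets. Protein-coding genes supplied 868 of the members. The other 51 probe sets, of long non-coding RNAs and pseudogenes, had a median of −0.06. Members just inside the threshold were probe sets of DRD5, APBB2 and PACRGL, whose second-highest arrays stood at 6.004, 6.004 and 6.005. Those just outside were of OCIAD1 (5.996), GAB1 (5.996) and MTNR1A (5.994).

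Along the chromosome the lower values were not even. The 505 genes were ordered by start and divided into 20 runs of 25 neighbours (30 in the last). In LM2, 18 of 20 runs had a median below 0, 15 against SN12C replicate 1 and 20 against replicate 2. All 20 lay below the median of all genes, 18 against replicate 1 and 20 against replicate 2. The long arm was lower than the short arm, with a median of −0.17 and 74.2% of 330 genes below 0 against −0.07 and 60.0% of 175 genes. The long arm was also the lower one against either parental array, at −0.14 and −0.02 against replicate 1 and −0.21 and −0.11 against replicate 2.

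**Figure D2:**
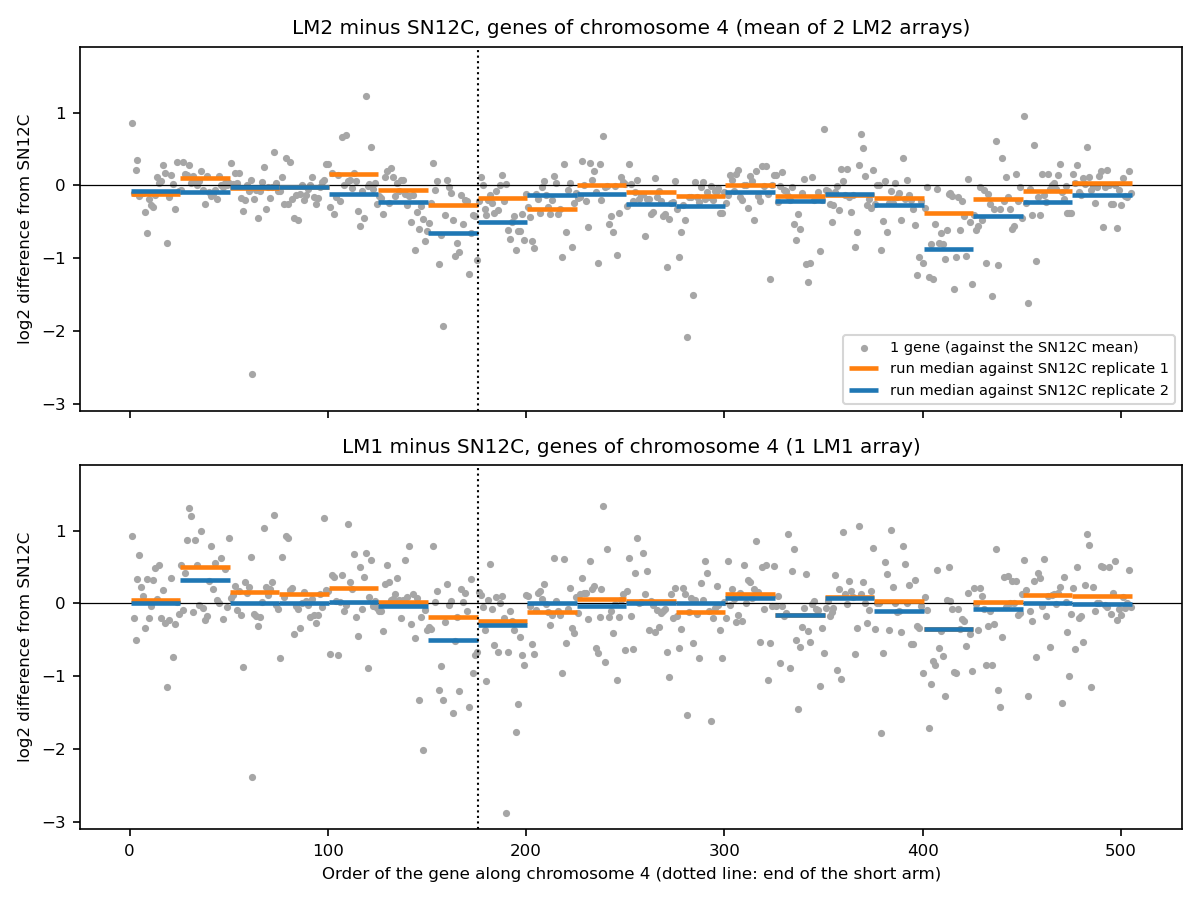
Log2 difference from SN12C of the 505 chromosome 4 genes in their order along the chromosome, for LM2 (top) and LM1 (bottom); grey points are genes against the SN12C mean, coloured bars are medians of runs of 25 genes against each SN12C array. In LM2 the run from GUSBP5 to TRIM2 (genes 401 to 425) is lowest, at −0.39 and −0.88.

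The lowest run in LM2 reached from GUSBP5 to TRIM2 on the long arm. Its median was −0.61 (−0.39 against SN12C replicate 1 and −0.88 against replicate 2), 24 of its 25 genes were below 0, and 16 had both LM2 arrays below both SN12C arrays. In LM1 this run was also the lowest, at −0.38. It holds OTUD4, a member of the ovarian-tumour family of deubiquitinases, at 10.02 and 10.05 in SN12C and 8.72 and 8.78 in LM2. LRBA, which takes part in vesicle trafficking, stood at 9.68 and 9.53 in SN12C and at 7.93 and 8.42 in LM2. TRIM2, a ubiquitin ligase, stood at 8.47 and 8.68 against 7.11 and 7.32. For these 3 genes the LM1 array lay between the other lines, at 9.25, 8.66 and 7.65. They were chosen for LM2 arrays outside both SN12C arrays, so that separation is no result. Their other probe sets gave smaller differences in LM2. These were −0.67 for OTUD4 (−1.29 for the probe set above), −1.21 for LRBA (−1.43) and −0.73 to −0.12 for TRIM2 (−1.36). The same run holds LSM6, an RNA-binding protein of the decay and splicing machinery, and ARFIP1, a Golgi-associated protein. Their differences in LM2 were −0.80 and −0.97.

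The next-lowest run reached from UBE2K to OCIAD2 at the end of the short arm, with a median of −0.43 in LM2 (−0.28 and −0.66 against the parental arrays) and −0.25 in LM1. In it 22 of 25 genes were below 0, and 17 had both LM2 arrays below both SN12C arrays. UCHL1, a ubiquitin hydrolase abundant in neurons and in many carcinoma lines, stood at 13.71 and 13.93 in SN12C, 12.95 in LM1 and 13.03 and 13.25 in LM2. OCIAD2 stood at 12.15 and 11.85 in SN12C, 11.34 in LM1 and 11.02 and 10.94 in LM2. COX7B2, of a cytochrome c oxidase subunit family, stood at 10.44 and 10.60, then 9.99, then 9.46 and 9.61. All 3 belong to those 17 genes and were named for large differences in LM2, so that separation is no result. In LM1 they also lay below both SN12C arrays. The adjoining run, DCUN1D4 to ARL9 at the start of the long arm, had a median of −0.32 in LM2 and −0.24 in LM1, so the stretch around the centromere was low on both sides.

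Some other runs stood near 0 in LM2. FAM53A to RGS12, near the end of the short arm and holding FGFR3, NSD2 and HTT, had a median of 0.03 in LM2 (0.10 and −0.09 against the parental arrays). BOD1L1 to CCDC149 stood at 0.00 (0.15 and −0.12). The run from ANXA2P1 to KLHL2, directly after the lowest run, was low in LM2 (−0.32) but near 0 in LM1 (−0.04).

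In LM1, chromosome 4 was lower than the array-wide level by less, and the result depended on how genes were read. The median member probe set stood at −0.09 (−0.05 and −0.09 against SN12C replicates 1 and 2), against 0.03 over all probe sets. Of the members 534 (58.1%) were below 0, against 44.8% of all. The shares were 53.9% against replicate 1 (42.3% of all) and 57.2% against replicate 2 (42.0% of all). The LM1 array lay below both SN12C arrays for 376 members (40.9%, against 28.3% of all) and above both for 253 (27.5%, against 39.9%). Differences of at least 1 downwards were found for 106 members (11.5% against 6.87%) and upwards for 17 (1.85% against 5.76%). With 1 probe set per gene the median was −0.02 against 0.09 over all genes, and 263 genes (52.1%, against 38.6%) were below 0. The members thus lay below the rest of the array on both readings, but by gene the median itself was near 0. Of the 20 runs, 10 had a median below 0 and 18 lay below the median of all genes. FAM53A to RGS12 stood highest, at 0.42.

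LM1 rests on 1 array, the array with the large 3′ to 5′ difference of actin and GAPDH given above, and the part of that difference in these values was not tested. No member and no probe set in all (0%) passed limma with Benjamini-Hochberg adjustment, and the lowest adjusted p of a member was 0.0734. At an unadjusted p under 0.05, limma had 162 members lower (17.6%, against 9.44%) and 75 higher (8.16%, against 14.9%). With each array centred on its median, limma called 75 members and 1989 probe sets in all. Leaving out SN12C replicate 1 gave 186 members and 5668 in all, and leaving out replicate 2 gave 258 and 8983. These fits set 1 LM1 array against 1 SN12C array, and only the LM2 replicates gave them a spread.

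The LM1 and LM2 comparisons use the same SN12C arrays, so an error in SN12C enters both, and their values are given side by side only.

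Between the metastatic lines the members differed little from the rest of the array. LM2 minus LM1 had a median of −0.05 over the members and −0.03 over all probe sets, and 538 members (58.5%, against 54.3%) were lower in LM2. Members lower by at least 1 numbered 24 (2.61%, against 2.02%) and higher by at least 1 68 (7.40%, against 7.95%). By gene the medians were −0.12 and −0.07, with 66.3% and 61.6% below 0. Both LM2 arrays lay below the LM1 array for 456 members (49.6%, against 45.7%) and above it for 312 (33.9%, against 35.1%). No member and no probe set in all (0%) passed limma after Benjamini-Hochberg adjustment, with a lowest adjusted p of 0.100 among the members. At an unadjusted p under 0.05, 124 members were lower (13.5%, against 11.5%) and 92 higher, where 10.3% of all probe sets were higher. With each array centred, limma called 44 members and 1286 probe sets in all. With either SN12C array left out it called 161 and 5140, and again only the LM2 replicates gave a spread.

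The genes lowest in LM2 were taken from those with both LM2 arrays below both SN12C arrays. CYTL1, a small secreted protein, stood at 7.62 and 9.09 in SN12C, 5.97 in LM1 and 5.63 and 5.90 in LM2, a difference of −2.59 (limma SE 0.59). NAP1L5, an imprinted gene of the nucleosome assembly protein family, stood at 6.49 and 7.13, then 5.28, then 4.90 and 4.54 (−2.09, SE 0.30). LIMCH1, which binds actin and non-muscle myosin, stood at 10.14 and 11.37, then 9.43, then 8.77 and 8.86 (−1.94, SE 0.49). In these 3 genes all LM arrays lay below both SN12C arrays, and the SN12C arrays were 0.64 to 1.46 apart. CYTL1 and NAP1L5 reached the signal threshold of 6 only in the SN12C arrays. They are thus members through the line in which they are high, and their place at the low end of LM2 supports nothing by itself. Both further probe sets of LIMCH1 gave like differences, −1.81 and −2.10.

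CPE encodes carboxypeptidase E, which trims prohormones, and MAP9 a spindle microtubule protein. CPE stood at 7.65 and 8.33 in SN12C, 6.72 in LM1 and 6.51 and 6.23 in LM2, a difference of −1.62 (SE 0.30), with its other probe set at −2.72. MAP9 stood at 8.75 and 8.50, then 7.78, then 6.96 and 7.25 (−1.52, SE 0.17), and its other 3 probe sets ranged from −1.39 to −0.49. The remaining genes of the 10 were TIGD2 (−1.50), LRBA (−1.43), TRIM2 (−1.36), CAMK2D (−1.32) and OTUD4 (−1.29). CAMK2D, the delta isoform of a calcium- and calmodulin-dependent kinase, was the least even of these: SN12C stood at 10.65 and 9.70, LM1 at 9.80, inside that range, and LM2 at 8.68 and 9.02. Its other probe sets ranged from −1.11 to −0.07. Those of TRIM2 ranged from −0.73 to −0.12, while LRBA had another at −1.21 and OTUD4 another at −0.67.

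**Figure D3:**
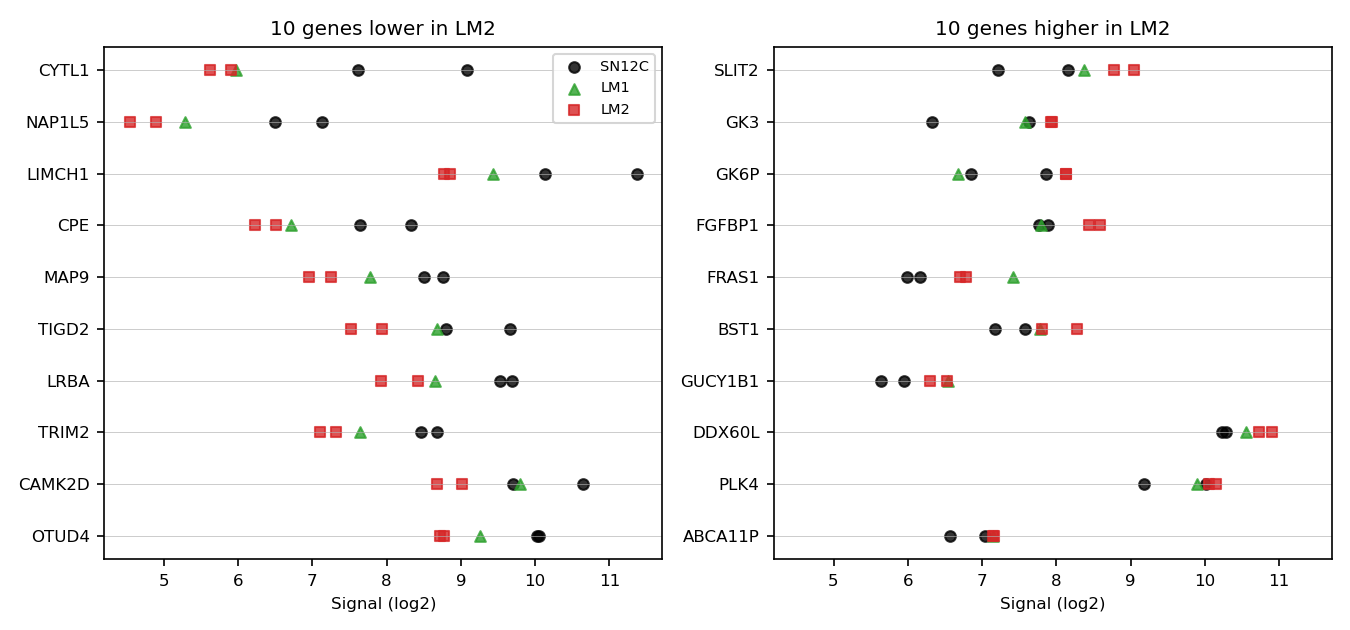
Log2 signal of the 10 chromosome 4 genes lowest (left) and the 10 highest (right) in LM2 against SN12C, 1 probe set per gene and 1 point per array. By the way they were chosen, the 2 LM2 squares lie to 1 side of both SN12C circles; the LM1 triangle lies below both SN12C arrays in 9 of the 10 genes on the left.

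Few members stood clearly higher in LM2. The genes below were taken from those with both LM2 arrays above both SN12C arrays, so that separation is no result. SLIT2, a secreted ligand of the ROBO guidance receptors, stood at 7.22 and 8.15 in SN12C, 8.37 in LM1 and 8.77 and 9.05 in LM2, a difference of 1.23 (SE 0.39). Its other probe sets gave 1.37 and 1.66. FGFBP1, which releases fibroblast growth factors from the matrix, stood at 7.77 and 7.88, then 7.80, then 8.59 and 8.44 (0.69, SE 0.10). SLIT2 was higher in every LM array, whereas FGFBP1 was higher in LM2 and stood between the SN12C arrays in LM1. FRAS1, a basement membrane protein needed in kidney development, stood at 5.98 and 6.16 in SN12C, 7.41 in LM1 and 6.79 and 6.71 in LM2, but its other probe set gave 0.03. BST1, an ADP-ribosyl cyclase at the cell surface, stood at 7.17 and 7.58, then 7.78, then 8.27 and 7.81. GUCY1B1, a subunit of the nitric oxide receptor guanylate cyclase, stood at 5.64 and 5.95, then 6.55, then 6.52 and 6.29. For all 3 genes the LM1 array also lay above both SN12C arrays. GUCY1B1 reached the signal threshold of 6 only in LM arrays, so it is a member through the lines in which it is high. In SN12C the FRAS1 probe set above reached 6 only in replicate 2, so it too passed the filter through LM arrays.

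The other genes of these 10 were less certain. GK3 (0.95) and GK6P (0.77) are near-identical copies of a glycerol kinase gene on another chromosome, and their probe sets can bind several transcripts, so the signal cannot be assigned to them. DDX60L, a helicase-like gene induced by interferon, stood at 0.56 with another probe set at −0.30. PLK4, the kinase that starts centriole duplication, stood at 0.51 with others between 0.09 and 1.34, and ABCA11P, a pseudogene, at 0.35.

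The genes lowest in LM1 were mostly other genes. All were taken from genes with the LM1 array below both SN12C arrays, so that separation is no result. CYTL1 (−2.38) and NAP1L5 (−1.53) were the 2 shared with the LM2 list, and the 2 comparisons use the same SN12C arrays. Both passed the signal threshold only through SN12C. TMEM165, a Golgi protein needed for glycosylation, stood at 10.17 and 11.23 in SN12C, 7.82 in LM1 and 10.74 and 10.70 in LM2, a difference of −2.88 in LM1. Its other probe sets in LM1 ranged from −0.52 to 0.24, so this value belongs to 1 probe set. LIAS, the lipoic acid synthase, stood at 8.28 and 9.19, then 6.72 in LM1, then 8.14 and 8.41. CRACD, an inhibitor of actin capping protein, stood at 7.64 and 7.93, then 6.01, then 6.71 and 7.09. For TMEM165, LIAS and CRACD the LM1 array lay below both LM2 arrays as well. SLC7A11, the cystine and glutamate exchanger, was lower by 1.78 with other probe sets at −0.73 and −0.66. ANAPC10, a subunit of the anaphase-promoting complex, was lower by 1.71 with its other probe set at −0.38. For EIF4E, the cap-binding translation factor, the named probe set gave −1.61 and the others −0.01 to 0.55. GNPDA2, an amino sugar deaminase, had −1.51 and AP1AR, an adaptor protein of vesicle transport, −1.45.

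Among the genes highest in LM1, FRAS1 (1.34, with its other probe set at −0.14) was also in the LM2 list. FGFR3, a fibroblast growth factor receptor, stood at 6.34 and 7.74 in SN12C, 8.35 in LM1 and 7.32 and 7.32 in LM2 (1.31 in LM1). LETM1, its neighbour on the chromosome and a mitochondrial inner membrane protein, stood at 8.50 and 8.79, then 9.85, then 8.70 and 8.65 (1.21), while its other probe sets gave −0.22 and 0.23. HAUS3, a subunit of the augmin complex of the spindle, lies in the same run and stood at 0.99. WFS1, a membrane protein of the endoplasmic reticulum, stood at 1.04 with another probe set at 0.15. In LM2 these 4 genes stood at 0.28, 0.03, 0.20 and 0.26. INTU, which acts in cilium assembly, stood at 1.07 in LM1 and MRFAP1L2 at 1.21. TAPT1, next to FGFBP1 on the chromosome, stood at 1.09 in LM1 with other probe sets at −0.26 and −0.15. RAB28, a small GTPase, had 1.17 with others from −1.20 to 0.01. NAA15, a subunit of an N-terminal acetyltransferase, had 1.01 with others from −2.47 to 0.06. For FRAS1, LETM1, TAPT1, RAB28 and NAA15 the probe sets of a gene thus had both signs in LM1.

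The members were also read by function, in 13 lists that hold 260 of the 505 genes. Against the SN12C mean, every list had a median below that of all genes (0.03) in LM2, from −0.02 for glycan and lysosomal enzymes to −0.39 for nucleotide and one-carbon synthesis. Against SN12C replicate 1 alone, the mitochondrial list, at 0.13, lay above the median of all genes, at 0.05. The 13 lists had no member that passed limma with Benjamini-Hochberg adjustment. The numbers below give, for LM2, members below 0 and members with both LM2 arrays outside both SN12C arrays. They can be read against all 505 genes of the chromosome, with 69.3% below 0, 34.9% outside on the lower side and 7.52% outside on the higher side. The share below 0 ranged from 53.8% for glycan and lysosomal enzymes to 84.2% for secretory pathway and lipid handling.

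**Figure D4:**
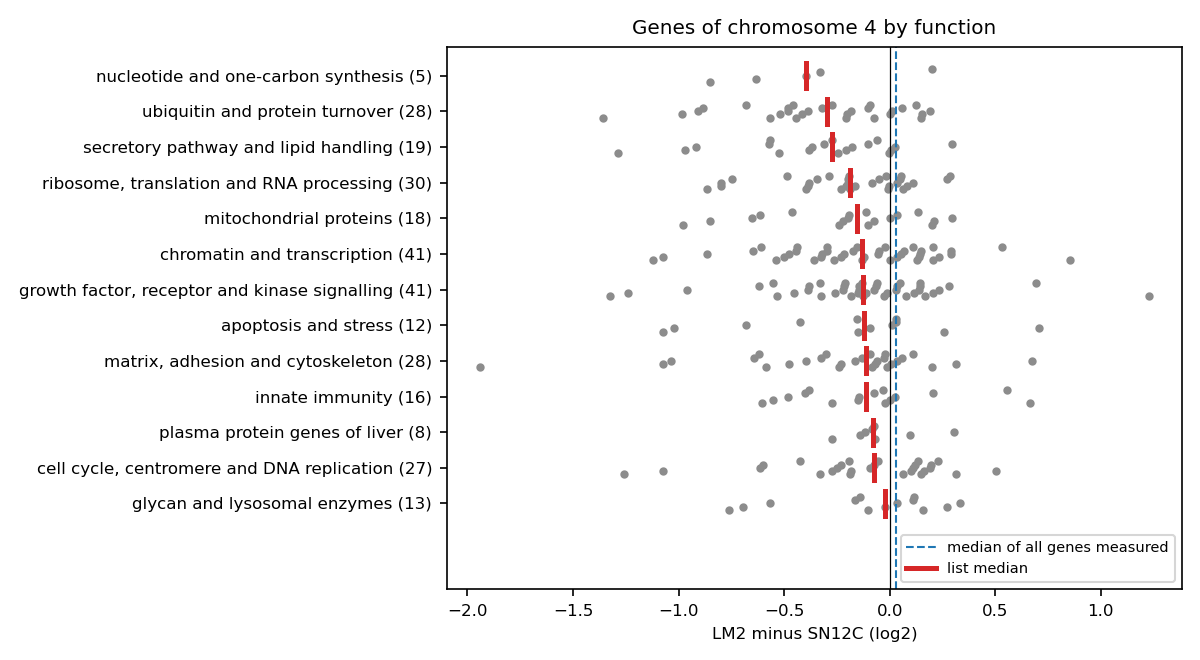
LM2 minus SN12C (log2) of the chromosome 4 genes in each functional list, 1 point per gene, number of genes in brackets; red bars are list medians and the dashed line is the median of all 15109 genes. All red bars lie left of the dashed line, from −0.39 to −0.02.

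Of 28 genes of ubiquitin and protein turnover, 21 were below 0 in LM2 (median −0.30), 13 lay outside SN12C on the lower side and 1 on the higher side. TRIM2 (−1.36) and the deubiquitinases USP38 (−0.98) and USP53 (−0.91) were the lowest, followed by KLHL5 (−0.88) of the kelch family. For TRIM2, other probe sets gave −0.73 to −0.12. KLHL5 stood at 10.93 and 10.65 in SN12C, 10.32 in LM1 and 9.84 and 9.97 in LM2. Of 30 genes of ribosome, translation and RNA processing, 22 were below 0 (median −0.19), 10 were outside on the lower side and 3 on the higher side. The median of this list was 0.05 against SN12C replicate 1 and −0.30 against replicate 2, so its direction turned with the parental array. POLR2B, the subunit of RNA polymerase II that pairs with the largest one, stood at 12.82 and 12.75 in SN12C, 12.09 in LM1 and 11.88 and 11.96 in LM2. ABCE1, the ribosome recycling factor, stood at −0.80 in LM2, LSM6 at −0.80 and SRP72, a protein of the signal recognition particle, at −0.75.

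In nucleotide and one-carbon synthesis 4 of 5 genes were below 0 (median −0.39), with 2 outside on the lower side and 1 on the higher side. MTHFD2L, a mitochondrial folate enzyme, stood at 8.08 and 8.28 in SN12C, 7.84 in LM1 and 7.19 and 7.47 in LM2. PPAT, the first committed enzyme of purine synthesis, stood at −0.63, PAICS at −0.39 and DCK, the deoxycytidine kinase, at −0.33. Of 19 genes of the secretory pathway and lipid handling, 16 were below 0 (median −0.27), with 10 outside on the lower side and 0 on the higher side. SGMS2, a sphingomyelin synthase, stood at 10.01 and 9.94 in SN12C, 9.44 in LM1 and 8.65 and 8.73 in LM2. ARFIP1 (−0.97), the phospholipid flippase ATP10D (−0.92) and the fatty acid ligase ACSL1 (−0.57) followed. ACSL1 stood at 0.50 in LM1, and 13 of the 19 genes were below 0 there.

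Mitochondrial proteins (18 genes) had 12 below 0, with a median of −0.15 that was 0.13 against SN12C replicate 1 and −0.40 against replicate 2, and 6 outside lower and 1 higher. COX7B2 (−0.98), MTHFD2L (−0.85), ATP5ME of the ATP synthase (−0.65) and GATB of mitochondrial translation (−0.61) had the largest differences. ATP5ME stood at 11.86 and 12.08 in SN12C, 12.30 in LM1 and 11.31 and 11.33 in LM2, lower in LM2 and higher in LM1. Of 13 glycan and lysosomal enzymes, 7 were below 0 (median −0.02), 5 outside lower and 1 higher, led by UGDH (−0.76), which makes UDP-glucuronic acid, heparanase HPSE (−0.69) and the lysosomal receptor SCARB2 (−0.57), while NAAA, a lysosomal amidase, stood at 0.33.

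Of 27 genes of the cell cycle, centromere and DNA replication, 15 were below 0 (median −0.07), 9 outside lower and 1, PLK4, outside higher. Against the parental arrays the median was 0.01 and −0.17. ANAPC10 stood at −1.26, the cyclin CCNG2 at −1.07, the meiotic recombination gene MND1 at −0.62 and RFC1, the large subunit of the clamp loader, at −0.60. RFC1 stood at 10.41 and 10.78 in SN12C, 9.27 in LM1 and 9.97 and 10.03 in LM2. Of 41 genes of chromatin and transcription, 25 were below 0 (median −0.13), 16 outside lower and 5 higher. AFF1, of the elongation complex, stood at 11.07 and 10.75 in SN12C, 10.25 in LM1 and 9.72 and 9.85 in LM2. SMARCA5, a nucleosome-remodelling ATPase, stood at −1.07. ZNF718, a zinc-finger gene, stood at 0.85, but the SN12C arrays were at 4.85 and 6.63, and 6.63 lay within the LM2 range.

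Growth factor, receptor and kinase signalling (41 genes) had 27 below 0 (median −0.13), 13 outside lower and 5 higher. INPP4B, a phosphoinositide phosphatase, stood at 6.51 and 7.04 in SN12C, 6.47 in LM1 and 5.60 and 5.47 in LM2. FGF5, a fibroblast growth factor, stood at 8.56 and 8.09, then 7.28, then 7.37 and 7.37. Together with CAMK2D (−1.32) these lay opposite to SLIT2 (1.23), so the list held large differences of both signs. Matrix, adhesion and cytoskeleton (28 genes) had 21 below 0 (median −0.11), 10 outside lower and 2 higher. ANK2, an ankyrin, stood at 7.26 and 6.55 in SN12C, 7.31 in LM1 and 5.78 and 5.89 in LM2, and PALLD, the actin-associated palladin, at 11.13 and 11.53, then 10.58, then 10.22 and 10.36. PALLD was lower in every LM array, ANK2 in LM2 but not in LM1. The probe sets read for INPP4B and ANK2 reached the signal threshold of 6 only in SN12C and LM1. They are members through the arrays in which they are high, so their low LM2 values support nothing by themselves.

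Innate immunity (16 genes) had 11 below 0 (median −0.11), 5 outside lower and 2 higher: BST1 (0.66) and DDX60L (0.56) against TIFA, an adaptor of NF-kappaB signalling (−0.60), and the cytokine IL15 (−0.55). The IL15 probe set reached the signal threshold of 6 only in SN12C replicate 2 and LM1, so its low LM2 value supports nothing by itself. Apoptosis and stress (12 genes) had 7 below 0 (median −0.12), 5 outside lower and 1 higher, with CCNG2 (−1.07), OCIAD2 (−1.02) and UCHL1 (−0.68) lower and the heat shock protein HSPA4L at 0.71 but overlapping SN12C. The list of plasma protein genes of liver, which also holds intracellular enzymes such as CYP4V2 and the ubiquitous ADH5, had 8 measured genes, 6 of them below 0 (median −0.08) and 0 outside on either side. HGFAC (0.30), CYP4V2 (−0.27), F11 (−0.14) and FGA (−0.12) had its largest differences.

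Head-to-head neighbours were read last. Of the member genes, 435 were found in the promoter table, and 28 pairs lay with starts within 1000 bases. In LM2 both genes were below 0 in 14 pairs, both above in 2, and 12 pairs had opposite signs. In LM1 the counts were 5, 5 and 18. The median difference between the genes of a pair was 0.199 in LM2. Of all 505 genes, 69.3% lay below 0 in LM2, and the pairs were not compared with other pairs of genes.

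**Figure D5:**
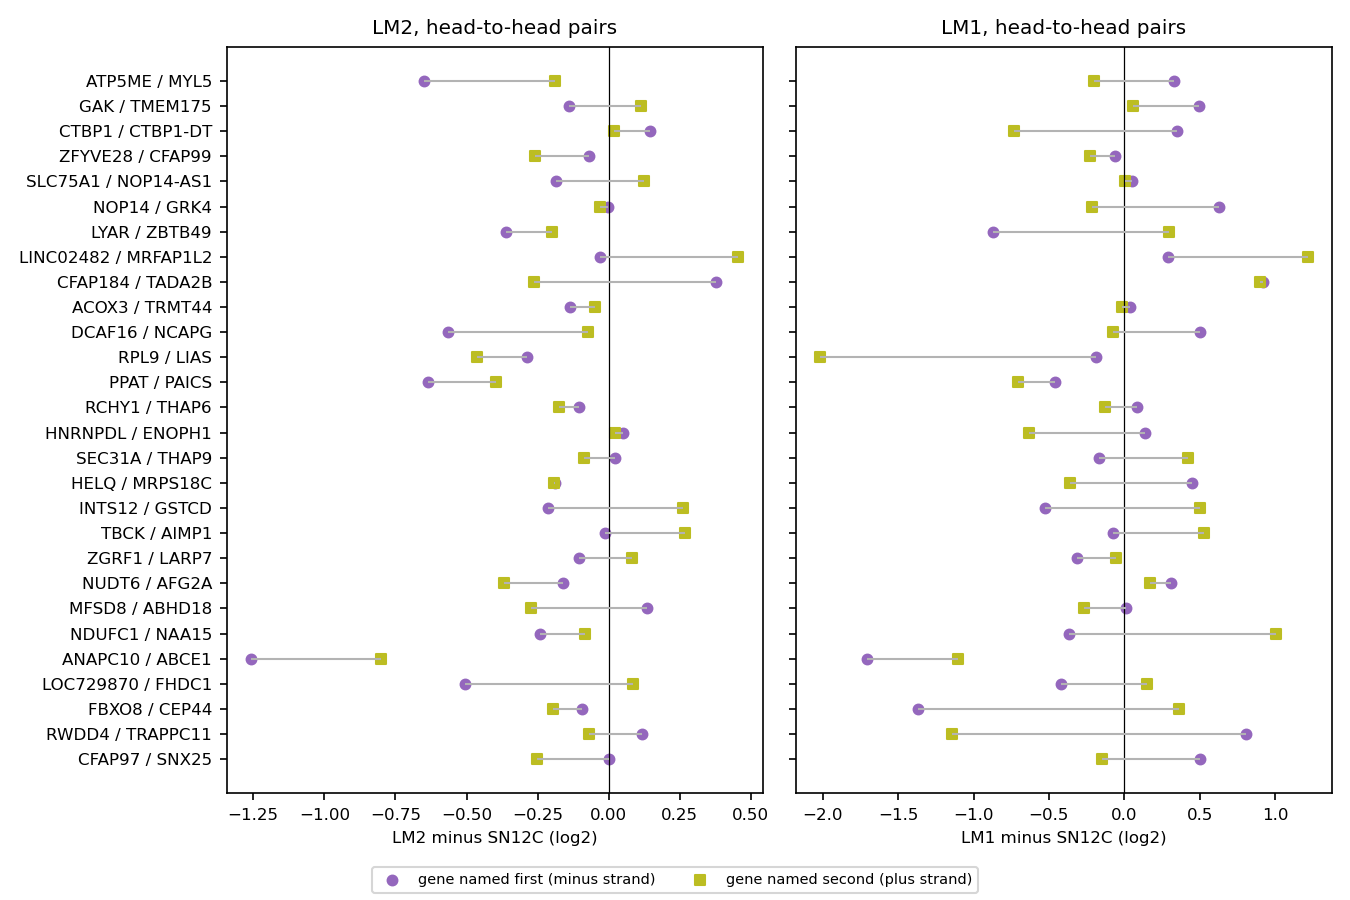
Log2 difference from SN12C of both genes of each of the 28 head-to-head pairs, in LM2 (left) and LM1 (right), in their order along the chromosome from top to bottom. ANAPC10 and ABCE1 are the lowest pair in LM2 (−1.26 and −0.80); RPL9 and LIAS lie far apart in LM1 (−0.19 and −2.01).

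In 3 of 28 pairs both genes lay outside SN12C on the lower side in LM2, where 34.9% of all 505 genes did singly. The count was not compared with other pairs of genes and says nothing about shared promoters. ANAPC10, with 91 bases between its start and that of ABCE1, stood at 9.43 and 9.81 in SN12C, 7.91 in LM1 and 8.28 and 8.45 in LM2. ABCE1 stood at 11.45 and 12.24, then 10.74, then 10.96 and 11.13. Both genes of this pair were lower in all LM arrays, and both lie in the lowest run. LYAR, a nucleolar protein, stood at −0.36 in LM2 and −0.87 in LM1, and its partner ZBTB49, a zinc-finger protein, at −0.20 and 0.30. In this pair the lines almost touched. The higher LM2 array of LYAR stood at 9.705 and the lower SN12C array at 9.716. For ZBTB49 these were 7.155 and 7.165. NUDT6, a hydrolase gene, stood at −0.16 and 0.31, and AFG2A, an ATPase of ribosome assembly, at −0.37 and 0.17. Both genes of these pairs lay on the same side in LM2, but LYAR and ZBTB49 lay on opposite sides of 0 in LM1, and NUDT6 and AFG2A lay above 0 there.

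PPAT stood at 9.85 and 10.45 in SN12C, 9.69 in LM1 and 9.42 and 9.62 in LM2. PAICS, across 136 bases and 3 GC boxes, stood at 12.22 and 13.03, then 11.91, then 12.19 and 12.26. LM2 lay below both SN12C arrays for PPAT, whereas for PAICS 1 LM2 array lay inside the SN12C range. The ribosomal protein gene RPL9 stood at −0.29 in LM2 and its partner LIAS at −0.46. In LM1 they stood at −0.19 and −2.01.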

How the data were processed

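Total RNA of 5 samples of 3 cell lines was hybridised to Affymetrix arrays. The deposited log2 signals, 1 per array and probe set, were made with RMA and Partek per the submitters' processing notes, without versions. RMA subtracts background, equalises the probe distributions of the arrays and summarises the probes of a set, so a true difference in total RNA signal cannot be read from its values. The deposited arrays were still not equal. Over all probe sets past the threshold, the median was 7.74 in SN12C replicate 1 and 7.92 in replicate 2. It was 7.84 in LM1 and 7.92 in both LM2 arrays. The differences over the chromosome and over the array thus shift with centring. The values were used as they are. Of 54675 probe sets, 62 controls were left out. A platform table gave 41091 probe sets exactly 1 gene, and 41019 matched the RefSeq table of GRCh38.p14, used for names, chromosomes and gene order. Many deposited values are identical between arrays: 146 members (15.9%, against 18.2% of all probe sets) were tied within a replicate pair, which shrinks their spread. The sources used here do not explain the ties.

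Samples were grouped by cell line. limma 3.58.1 (lmFit, eBayes; R 4.3.3) fitted 1 mean per line over all 5 arrays and 27932 probe sets, with Benjamini-Hochberg adjustment at 0.05, 2 residual and 1.2 prior degrees of freedom. The number of arrays limits the precision. The procedure was tested on simulated data. Members, lists and named genes (per comparison the 10 lowest and 10 highest genes with LM arrays outside both SN12C arrays, up to 4 per list, head-to-head pairs and threshold neighbours) were chosen with earlier results of these data known. Same-numbered SN12C and LM2 replicates did not deviate together (correlation 0.07 over all probe sets), so numbers were not taken as pairs. Alternatives changed the filter, the probe sets per gene, the normalization, eBayes settings and the arrays used. Figures were drawn with matplotlib 3.10.9.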

Additional observations from a re-analysis of the deposited data

How the results depend on the processing

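Over 110 alternatives, 84 left the result within its spread or count, but some of these could hardly have done otherwise. For LM2 against SN12C, the spread was the SD of the values with each SN12C array left out (0.085 for the median, 12.5 for the share). Those same values were then judged by it, so their staying within it is no check. Fitting the SN12C and LM2 arrays only repeated the main limma result (lowest adjusted p 0.300), since a single LM1 array adds no spread. In all 13 alternatives for LM2 against SN12C, and all 10 for each other comparison, the chromosome 4 median stayed below that of all probe sets and the share of lower members above it. For LM2 against SN12C, centring each array gave a median of −0.22. The number of members called by limma ranged from 0 to 195 when 1 array was left out. The count over all probe sets that goes with 195 is given in the Results. A replicate block over the SN12C and LM2 arrays gave 0 calls. In this balanced layout it cannot change the median (−0.13) or the share lower (67.9%), so it is no check on them. It is counted among the 13 alternatives, and among the 84, all the same. At an unadjusted p under 0.05, limma had 133 members with the block and 152 without it. The share over all probe sets with the block was not counted.

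For LM1 against SN12C, limma called 55 of 919 members after another quantile normalization, against 1303 of 27932 probe sets in all. Without tied probe sets (chosen after seeing the data) it called 13 of 773 members, against 380 of 22851 in all. With 1 array left out it called 0 to 258 members. The count over all probe sets that goes with 258 is given in the Results. The median was −0.14 with a signal of at least 7, −0.027 with no filter, −0.020 with 1 probe set per gene and −0.087 to −0.054 with an array left out. The share lower was 54.2% with no filter, 52.1% with 1 probe set per gene, 55.3% without probe sets that can bind several transcripts, and 53.9% to 57.2% with an array left out. For LM2 against LM1, limma called 14 of 919 members after another quantile normalization, against 512 of 27932 probe sets in all. With an array left out it called 0 to 161 members. The count over all probe sets that goes with 161 is given in the Results. The median was −0.12 with 1 probe set per gene, −0.094 without multi-transcript probe sets, −0.11 after quantile normalization and −0.13 after centring. The shares lower were 66.3%, 64.5%, 66.4% and 68.0% in that order, and 53.9% to 56.7% with an array left out. The cause of these changes was not tested. With 2 arrays per line at most and 1 for LM1, single-gene differences under the SN12C replicate spread cannot be resolved.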
